A study of Homo sapiens with 12 samples.

Results

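Chaperones of the endoplasmic reticulum (ER) and genes of the unfolded protein response were described in A375 cells, a human melanoma line, with and without knockdown of the RNA demethylase ALKBH5. The members were a list of 44 gene symbols, taken by name from the 29696 genes of the expression table and from the m6A peak lists of the same cells. Of these, 43 had a row in the expression table, and all 43 passed the filter on low values. The expression of DERL3 was not analysed here.

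One group had been infected with a lentivirus carrying a short hairpin RNA against ALKBH5 (shALKBH5, genotype label ALKBH5 knockdown), and the other with the control that the labels call shCtrl and give the genotype wild type. Each group had 3 input libraries, which gave expression in FPKM (sequenced fragments relative to the length of the transcript and the size of the library), and 3 libraries of poly(A) RNA precipitated with an antibody against N6-methyladenosine (m6A). Both groups were grown alike in DMEM with serum. The hairpin used for sequencing is not stated among those the study made, and the groups stand for 1 cell line.

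ALKBH5 itself had 3.39, 3.92 and 3.12 FPKM in shALKBH5 libraries 1, 2 and 3 and 19.3, 17.8 and 17.6 FPKM in shCtrl libraries 1, 2 and 3, a log2 fold change of -2.36 ± 0.09 (SE) with an adjusted p of 1.28e-06. The melanoma marker SOX10 was at 181 FPKM in shALKBH5 and 184 FPKM in shCtrl cells, and MITF at 1.26 and 0.78 FPKM. The pigment genes PMEL, TYR, TYRP1 and DCT were below 1 FPKM in every library, so these markers of the melanocyte lineage were absent or nearly so. PMEL, below the filter and not tested, was at 0.61 FPKM in shALKBH5 and 0.24 FPKM in shCtrl cells. Of markers of other cell types, TP63 was at 0 in 5 of the 6 libraries and COL1A2, PECAM1 and CDH5 were below 0.1 FPKM throughout. COL1A1 was at 0.55 FPKM in shALKBH5 and 0.45 FPKM in shCtrl cells and was not called. DCN (0.29 against 0.19 FPKM) and VWF (0.22 against 0.30 FPKM) were below the filter and not tested. LUM (2.61 against 1.16 FPKM), KRT10 (10.8 against 8.17 FPKM) and CD68 (40.4 against 16.2 FPKM) were measured and were higher in shALKBH5 cells, as was the Schwann and melanocyte gene S100B (82.1 against 32.9 FPKM). KRT14 went the other way (0.37 against 0.96 FPKM, log2 fold change -1.22, adjusted p = 0.00372), and PDGFRA, which was below the filter and not tested, was at 0.24 against 0.42 FPKM. The fibroblast list summed to 3.18 to 4.31 FPKM in shALKBH5 and 2.2 to 2.35 FPKM in shCtrl libraries, the keratinocyte list to 10.7 to 11.5 and 8.90 to 9.53 FPKM, and the endothelial and leukocyte list, nearly all CD68, to 38.3 to 42.2 and 15.2 to 17.5 FPKM. The part of these markers in the results was not tested. FPKM summed to 212760 to 223231 a library and no read counts were used, so the depth is unknown.

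Proteins that enter the secretory pathway are threaded into the ER through the SEC61 channel and folded there by chaperones, lectins and disulphide isomerases. When unfolded proteins accumulate, the membrane sensors ATF6, ERN1 (IRE1) and EIF2AK3 (PERK) start the unfolded protein response, in which ATF6 and spliced XBP1 raise chaperone and degradation genes while EIF2AK3 slows translation and raises ATF4 and its targets. m6A is a methyl mark on adenosines of mRNA, most frequent near stop codons and in 3'UTRs, that METTL3 writes and ALKBH5 can remove.

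ATF6 and XBP1 are known to act on chaperone genes through short promoter elements, and the matches found in 12 of the members are shown because they can be set beside the calls. RefSeq promoter windows of GRCh38.p14, reaching from 250 bases before to 50 bases after an annotated start, were at hand for 41 of the 44 members, and not for PDIA3, DERL1 and DERL3. These members had 53 windows, so some had more than 1 start. A start can lie inside the listed span of the gene, as in PDIA6. The ER stress response element (ERSE), searched on both strands as CCAAT and CCACG with 9 bases between them, lay in the windows of 9 members (22% of 41), against 0.0916% of 27305 genes. Its shorter form ERSE-II, ATTGG and CCACG with 1 base between them, lay in 3 members (7.32%), against 0.0696% of all genes. These elements are known from chaperone genes, and the members were taken by name. A higher share among the members is therefore not a result of these data. The matches are shown 5′ to 3′ on the strand that carries the element, 30 bases each, with the fixed letters of the element in capitals.
HSPA5: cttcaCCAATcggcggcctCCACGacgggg
HSP90B1: cctgaCCAATcggaaggagCCACGcttcgg
CALR: caccgaCCAATgatggtcgaCCACGcgtgg
CANX: cccggCCAATcttcacactCCACGaagaat
PDIA6: ccggaCCAATgagccgcagCCACGgcttgg
CRELD2: tatggcCCAATccgagttcgCCACGagagg
ERO1B: cggcggCCAATgaggcgggaCCACGcgggc
XBP1: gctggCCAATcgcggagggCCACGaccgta
SERP1: gaaacaCCAATtcgctgtctCCACGcatga
HYOU1: gcgcgtactcATTGGaCCACGtcccaggcc
SDF2L1: gagggttttgATTGGtCCACGcttccgagg
HERPUD1: cggacgccgATTGGgCCACGttgggagagt

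The HSPA5 match lies 66 bases before the gene's start (chr9:125241385-125241414, minus strand, the strand of the gene) and the XBP1 match 52 bases before it (chr22:28800597-28800626, minus strand, the strand of the gene). The CALR match (chr19:12938379-12938408, minus strand) and the SDF2L1 match (chr22:21642105-21642134, minus strand) are on the strand opposite to the gene. HYOU1 holds 2 ERSE-II matches, of which the one nearer the start is shown (79 bases before it, chr11:119057264-119057293, plus strand, opposite to the gene), and HSP90B1 holds 2 ERSE matches, of which the farther is shown (chr12:103930211-103930240, plus strand, the strand of the gene). Another element, TGACGTG (the core of the unfolded protein response element), lay in 4 members (9.76%) and in 2.4% of all genes. Those members were HYOU1, where it overlaps the ERSE-II farther from the start, SEC61A1, SSR3 and SSR4. A match describes the letters in these windows and not the binding of a factor, which was not measured.

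After ALKBH5 knockdown, 14 of the 20 listed chaperones, lectins, isomerases and oxidases were lower, whereas 6 of the 9 listed translocation genes and 4 of the 6 sensors and stress regulators were higher. Of the 43 members tested, 18 were called higher and 19 lower in shALKBH5 cells (limma, adjusted p under 0.05), and 6 were not called. Among all 12985 genes tested, 61% were called, with 34.7% higher and 26.2% lower, so calls were frequent throughout and the members' share of 37 in 43 is read against that background. The groups did not overlap in 39 members, 19 with every shALKBH5 library above every shCtrl library and 20 with every one below, against 67% of all genes tested (38% above and 29% below). Changes of at least 1.5-fold were called in 5 members upward and 8 downward, against 28.1% of all genes. The median log2 fold change was -0.05 over the members and 0.09 over all genes tested, and the median size of the change, sign left aside, was 0.44 and 0.36. Summed over the 43 members, expression was 2185, 2187 and 2166 FPKM in the shALKBH5 libraries and 2569, 2588 and 2574 FPKM in the shCtrl libraries. In such bulk samples fewer cells of a type and less RNA per cell cannot be told apart. The labels do not say that the 3 libraries of a group came from separate cultures, so the p-values measure the spread between these libraries, which may be technical.

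**Figure D1:**
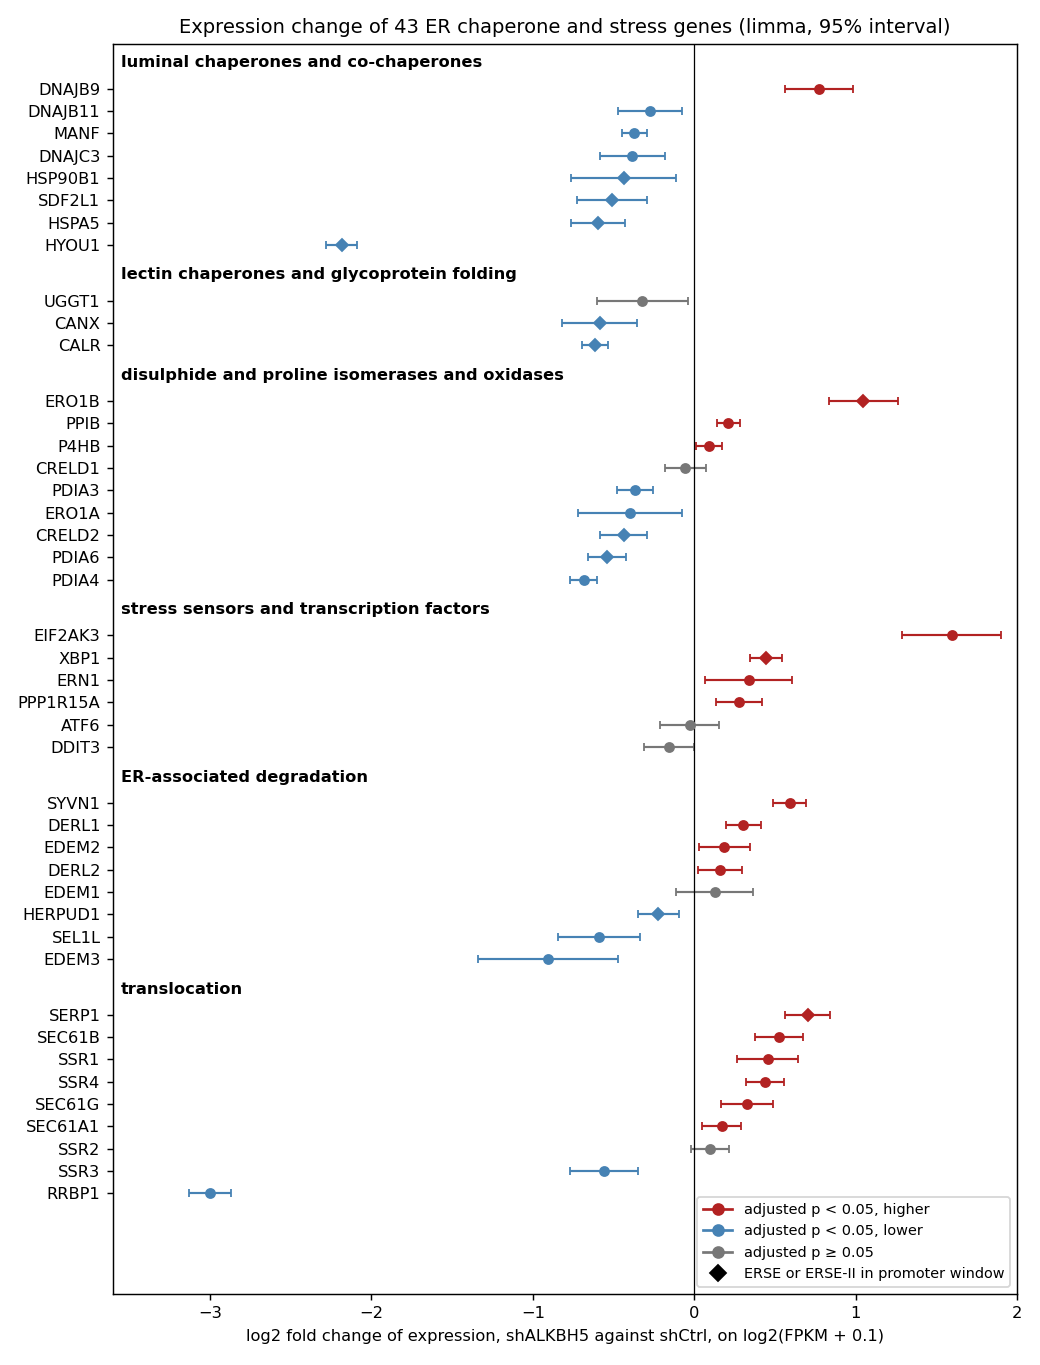
Log2 fold change of expression (shALKBH5 against shCtrl, x axis, on log2(FPKM + 0.1)) for the 43 members tested, grouped by role, with points for limma estimates from 3 libraries a group, bars for 95% intervals, colours for calls and diamonds for genes with an ERSE or ERSE-II. Luminal and lectin chaperones lie to the left of 0 except DNAJB9 (0.77), the stress sensors lie mostly to the right, and RRBP1 (-3.00), HYOU1 (-2.18) and EIF2AK3 (1.59) stand farthest out.

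Among the luminal chaperones and their partners, 7 of 8 fell and 1 rose, with a median log2 fold change of -0.41. HSPA5 (BiP, ENSG00000044574, chr9:125234850-125241340, minus strand), the main Hsp70 of the ER and the protein that holds the sensors inactive, had 170, 177 and 161 FPKM in the shALKBH5 libraries and 231, 276 and 264 FPKM in the shCtrl libraries. All 3 shALKBH5 values were below all 3 shCtrl values, and the log2 fold change was -0.60 ± 0.07 (SE, adjusted p = 0.000267). HYOU1, an ER member of the large Hsp70 family that works as a nucleotide exchange factor for HSPA5, had 23.7, 23.2 and 24.1 FPKM in shALKBH5 and 112, 106 and 106 FPKM in shCtrl cells. Its libraries were tight within each group and far apart between them, a log2 fold change of -2.18 ± 0.04 (adjusted p = 1.63e-07), and 77 of the called genes fell further. HSP90B1, the Hsp90 of the ER, had 47.2, 37.2 and 44.9 FPKM in shALKBH5 and 53.1, 71.4 and 51.8 FPKM in shCtrl cells. The spread within groups was wide, with a log2 fold change of -0.44 ± 0.14 (adjusted p = 0.0269), and it was no longer called without shALKBH5 library 2 (-0.34) and was -0.29 without shCtrl library 2. Its call was also lost at the same value without a trend of the variance on expression in limma.

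The smaller partners of HSPA5 moved less than HYOU1. MANF, a stress-induced protein that binds HSPA5 and is also secreted, had 53.9, 52.6 and 52.5 FPKM in shALKBH5 and 68.3, 68.2 and 69.2 FPKM in shCtrl cells (log2 fold change -0.37 ± 0.03, adjusted p = 6.08e-05). SDF2L1, which joins an HSPA5 and DNAJB11 complex, fell by 0.51 on the log2 scale, and the co-chaperones DNAJC3 and DNAJB11 fell by 0.38 and 0.28. DNAJB11 was the least firm of these, losing its call without shALKBH5 library 1 or 3 or shCtrl library 2 or 3, with values between -0.27 and -0.20. DNAJB9 (ERdj4), a J protein that brings HSPA5 to ERN1 and to degradation, went the other way, with 5.34, 4.89 and 4.57 FPKM in shALKBH5 and 2.96, 2.56 and 3.02 FPKM in shCtrl cells. Every shALKBH5 library was above every shCtrl library, and the log2 fold change was 0.77 ± 0.09 (adjusted p = 0.000251). Summed over the 8 genes, the libraries held 314 to 328 FPKM in shALKBH5 and 504 to 560 FPKM in shCtrl cells.

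Both lectin chaperones, which hold newly made glycoproteins in the folding cycle, were lower. CALR (calreticulin, the soluble form) had 379, 380 and 386 FPKM in shALKBH5 and 606, 577 and 574 FPKM in shCtrl cells, for a log2 fold change of -0.62 ± 0.03 (adjusted p = 7.44e-06). It was the member with the highest mean expression in shCtrl cells, at 586 ± 17.7 FPKM (SD, n = 3), and PPIB, at 434 ± 7.12 FPKM, came next. In shALKBH5 cells the order was turned, with PPIB at 503 ± 4.93 FPKM above CALR at 382 ± 3.95 FPKM. CANX (calnexin, the membrane-bound form) had 44.9, 43.4 and 39.5 FPKM against 55.1, 72.5 and 65.4 FPKM (log2 fold change -0.59 ± 0.10, adjusted p = 0.00162). UGGT1, the glucosyltransferase that returns misfolded glycoproteins to these lectins, had 7.93, 7.42 and 7.09 FPKM in shALKBH5 and 7.76, 10.96 and 9.64 FPKM in shCtrl cells. These groups overlapped, and the log2 fold change of -0.32 (95% interval -0.60 to -0.04) missed the threshold by little (adjusted p = 0.0505). UGGT1 was called lower without shCtrl library 1 (-0.46), with median-ratio scaling of the libraries (-0.40) and with a filter at 1 FPKM, and went to -0.21, not called, without shCtrl library 2 or with the trend over gene span removed.

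Among the isomerases and oxidases that form and rearrange disulphides or turn prolines, 3 of 9 rose, 5 fell and 1 was not called. PDIA4, a protein disulphide isomerase, had 69.6, 73.5 and 73.1 FPKM in shALKBH5 and 116 FPKM in each of the 3 shCtrl libraries, a log2 fold change of -0.69 ± 0.04 (adjusted p = 4.81e-06). PDIA6 and PDIA3, isomerases that work beside HSPA5 and beside the lectins, fell by 0.54 and 0.37 on the log2 scale, with no overlap between groups. P4HB, the founding disulphide isomerase, differed little, with 142, 142 and 143 FPKM against 137, 130 and 132 FPKM, and its log2 fold change of 0.09 passed the test by a small margin (adjusted p = 0.0478). That call was lost with median-ratio scaling (0.02) and without any shALKBH5 library or shCtrl library 2 or 3 (0.08 to 0.09). PPIB, a proline isomerase, rose by 0.21 on the log2 scale (adjusted p = 0.000786), with 508, 498 and 502 FPKM against 437, 426 and 439 FPKM. PPIB was called at 0.14 with median-ratio scaling and at 0.13 with the trend over gene span removed.

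The 2 oxidases that recharge the disulphide isomerases moved in opposite directions. ERO1A, the widely expressed form, had 1.78, 1.66 and 1.64 FPKM in shALKBH5 and 1.84, 2.70 and 2.34 FPKM in shCtrl cells (log2 fold change -0.40 ± 0.14, adjusted p = 0.0378). Its shALKBH5 libraries lay just under the lowest shCtrl library, and it kept its call without shCtrl library 1 but not without any of the other libraries (-0.43 to -0.28). ERO1B, the other form, had 3.09, 3.01 and 2.91 FPKM in shALKBH5 and 1.26, 1.46 and 1.49 FPKM in shCtrl cells, for a log2 fold change of 1.05 ± 0.09 (adjusted p = 5.21e-05). Of the CRELD pair, CRELD2, a secreted stress-induced protein, fell by 0.44 on the log2 scale (adjusted p = 0.000604), and CRELD1 had a log2 fold change of -0.05 (95% interval -0.18 to 0.07, adjusted p = 0.42), which ran from -0.13 with median-ratio scaling to -0.03 without shCtrl library 3 or shALKBH5 library 3. Summed over the 9 genes, the libraries held 878 to 889 FPKM in shALKBH5 and 903 to 913 FPKM in shCtrl cells, since the higher PPIB values stood beside the lower isomerase values.

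**Figure D2:**
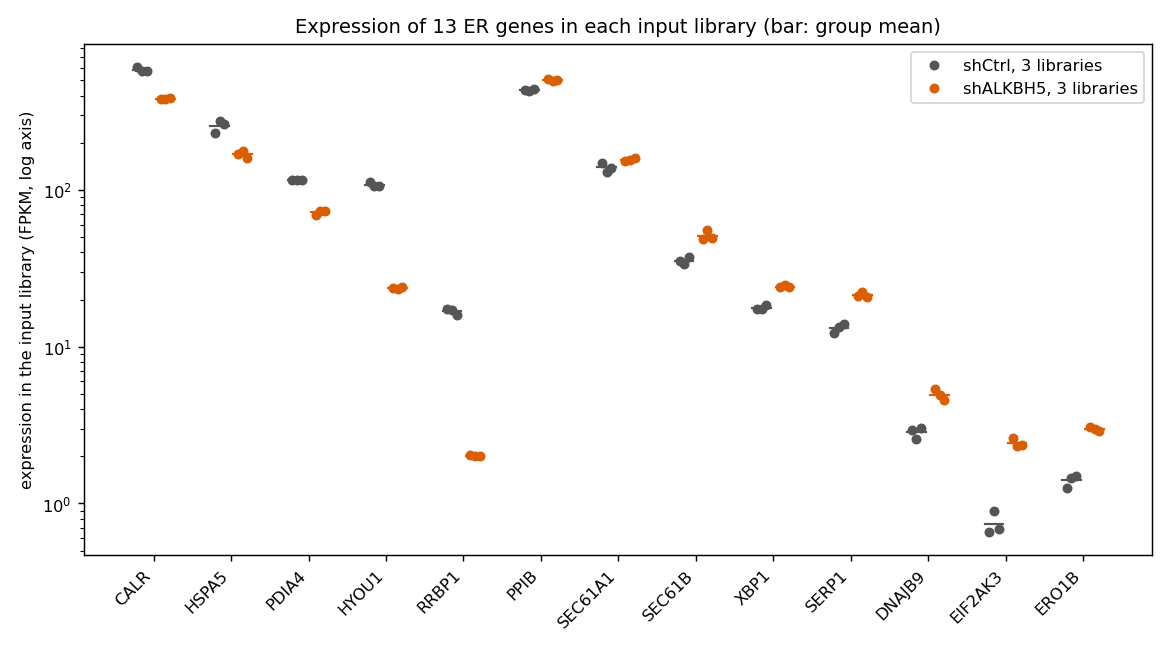
Expression (FPKM, log axis) of 13 members in each of the 3 shCtrl (grey) and 3 shALKBH5 (orange) input libraries, with a bar at each group mean. CALR, HSPA5, PDIA4, HYOU1 and RRBP1 are lower in every shALKBH5 library, and the other 8 genes, from PPIB (437, 426 and 439 FPKM in shCtrl) down to ERO1B, are higher in every one.

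Of the 6 stress sensors and regulators, 4 rose, none fell by the test and 2 were not called, with a median log2 fold change of 0.31. With median-ratio scaling, or with the trend over gene span removed, 3 of them were called higher and 1 (DDIT3) lower. EIF2AK3 (PERK, chr2), the kinase that phosphorylates the initiation factor eIF2 alpha, had 2.60, 2.34 and 2.36 FPKM in shALKBH5 and 0.66, 0.89 and 0.69 FPKM in shCtrl cells. Its log2 fold change of 1.59 ± 0.13 (adjusted p = 4.09e-05) was the most positive of all members, and 182 of the called genes rose more. With a pseudocount of 1 it was 0.98, still called, since both groups were near that level. ERN1, the sensor that splices XBP1 mRNA, was also at a low level, with 1.05, 1.09 and 1.07 FPKM against 0.78, 0.80 and 0.90 FPKM (log2 fold change 0.34 ± 0.11, adjusted p = 0.0356). The ERN1 call held only without shCtrl library 3 among the libraries left out, was lost without any of the others (0.30 to 0.35), and was lost with median-ratio scaling (0.27); with a pseudocount of 1 the value was 0.18. ATF6, the sensor that is cut in the Golgi to release a transcription factor, had 6.74, 6.92 and 6.43 FPKM against 6.26, 7.58 and 6.73 FPKM, with overlapping groups and a log2 fold change of -0.03 (95% interval -0.21 to 0.15, adjusted p = 0.761). It took a positive sign without shCtrl library 2 (0.04) or with the span trend removed (0.10), and reached -0.10 with median-ratio scaling.

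XBP1, the transcription factor made from the spliced mRNA, had 24.0, 24.7 and 23.9 FPKM in shALKBH5 and 17.5, 17.4 and 18.4 FPKM in shCtrl cells (log2 fold change 0.44 ± 0.04, adjusted p = 8.71e-05). All shALKBH5 libraries were above all shCtrl libraries, but FPKM per gene do not separate the spliced from the unspliced form. PPP1R15A (GADD34), the phosphatase subunit that reverses the action of EIF2AK3, rose from 26.1, 24.8 and 22.4 FPKM in shCtrl to 29.5, 29.0 and 30.4 FPKM in shALKBH5 cells (log2 fold change 0.28 ± 0.06, adjusted p = 0.00541), a call that was lost with the span trend removed (0.14). DDIT3 (CHOP), a transcription factor induced late in the response, had 6.19, 7.11 and 6.87 FPKM against 7.38, 7.73 and 7.35 FPKM. Its shALKBH5 libraries were all below the shCtrl libraries, yet its log2 fold change of -0.15 was not called (adjusted p = 0.0765). DDIT3 was called lower with median-ratio scaling (-0.23), and was -0.10, not called, without shALKBH5 library 1.

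In ER-associated degradation, which pulls misfolded proteins back to the cytosol, 4 of the 8 members tested rose, 3 fell and 1 was not called. SYVN1 (HRD1), the ubiquitin ligase of the pathway, had 20.0, 20.8 and 20.3 FPKM in shALKBH5 and 13.9, 13.1 and 13.4 FPKM in shCtrl cells, for a log2 fold change of 0.59 ± 0.04 (adjusted p = 2.41e-05). Its partner SEL1L, the adaptor of the same ligase complex, had 1.63, 1.48 and 1.54 FPKM against 2.25, 2.75 and 2.18 FPKM, a log2 fold change of -0.59 ± 0.11 (adjusted p = 0.00244). Subunits of 1 complex thus moved in opposite directions, each with no overlap between groups. HERPUD1, a stress-induced protein that gathers this complex, fell by 0.22 on the log2 scale (adjusted p = 0.00856).

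The EDEM proteins, which trim mannose from misfolded glycoproteins, did not move together. EDEM3 had 1.09, 0.90 and 1.23 FPKM in shALKBH5 and 1.88, 2.73 and 1.76 FPKM in shCtrl cells (log2 fold change -0.91 ± 0.19, adjusted p = 0.0041, and -0.58 with a pseudocount of 1), EDEM2 had a log2 fold change of 0.19 (adjusted p = 0.0442) and EDEM1 one of 0.13 (95% interval -0.11 to 0.36, adjusted p = 0.32). Of the Derlins, which form the exit channel, DERL1 rose by 0.30 (adjusted p = 0.000962) and DERL2 by 0.16 on the log2 scale (adjusted p = 0.0451). The EDEM1 value was 0.0004 without shCtrl library 1, 0.19 without shCtrl library 3 and 0.05 with median-ratio scaling, not called in any. The calls of EDEM2 and DERL2 were lost with median-ratio scaling (0.11 and 0.08), EDEM2 also without any shALKBH5 library or shCtrl library 2 (0.12 to 0.21), and DERL2 without any library but shCtrl library 2 (0.12 to 0.18).

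Of the 9 translocation genes, 6 rose, 2 fell and 1 was not called, with a median log2 fold change of 0.33. The 3 subunits of the SEC61 channel were all higher. SEC61B had 48.6, 55.5 and 49.1 FPKM in shALKBH5 and 35.1, 33.8 and 37.5 FPKM in shCtrl cells (log2 fold change 0.52 ± 0.06, adjusted p = 0.000312), SEC61G rose by 0.33, and SEC61A1, the pore itself, by 0.17. The SEC61A1 call was lost with median-ratio scaling (0.09) and without any shALKBH5 library or shCtrl library 3 (0.16 to 0.18). SERP1 (RAMP4), a small protein bound to the channel, had 21.2, 22.5 and 20.8 FPKM against 12.3, 13.3 and 13.9 FPKM, a log2 fold change of 0.70 ± 0.06 (adjusted p = 4.65e-05).

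The 4 subunits of the translocon-associated protein complex differed among themselves. SSR1 and SSR4 rose by 0.46 and 0.44 on the log2 scale, SSR2 had a log2 fold change of 0.10 (95% interval -0.02 to 0.21, adjusted p = 0.131), and SSR3 had 14.4, 14.2 and 12.2 FPKM in shALKBH5 against 18.0, 21.4 and 20.8 FPKM in shCtrl cells, for a log2 fold change of -0.56 ± 0.09 (adjusted p = 0.00114). SSR2 was called higher without shCtrl library 1 (0.13) and was not called without shCtrl library 2 (0.05), with median-ratio scaling (0.02) or with the span trend removed (0.04). RRBP1 (ENSG00000125844), a coiled-coil protein of the rough ER that binds ribosomes, moved most of all members, with 2.05, 2.01 and 1.99 FPKM in shALKBH5 and 17.3, 17.2 and 16.0 FPKM in shCtrl cells. Its log2 fold change was -3.00 ± 0.06 (adjusted p = 1.63e-07), only 10 of the called genes fell further, and ALKBH5 fell less. Leaving out any 1 library moved that value only between -3.03 and -2.98.

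**Figure D3:**
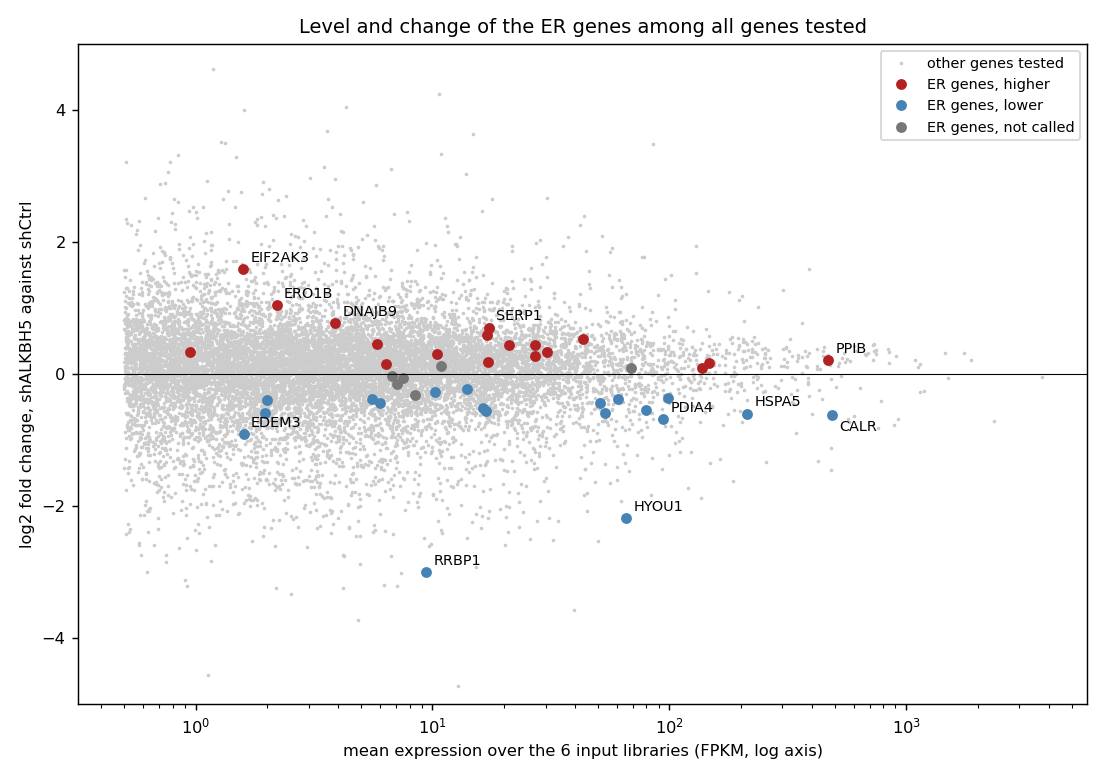
Mean expression over the 6 input libraries (FPKM, log axis) against log2 fold change (shALKBH5 against shCtrl) for the 12985 genes tested (grey) and the 43 members, coloured by call. The members have a median of 16.8 FPKM against 3.93 FPKM for all genes tested, and HYOU1 (-2.18) and RRBP1 (-3.00) lie at the lower edge of the cloud.

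The members' promoter elements were set beside these calls as a description, with no test. Of the 12 genes with an ERSE or ERSE-II match, whose sequences stand above, 9 were lower and 3 higher, with a median log2 fold change of -0.47. The 3 higher ones were XBP1, SERP1 and ERO1B, and the 3 genes with an ERSE-II (HYOU1, SDF2L1 and HERPUD1) were all lower. Of the 29 members whose windows held neither element, 9 were lower, 14 higher and 6 not called, with a median of 0.10. Among all genes tested, 26.2% were called lower and 34.7% higher. The roles are not evenly spread over these sets, since folding genes make up most of the first.

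A pair of technical measures moved with the calls. Median-ratio scaling, which sets the middle gene of each library equal, gave 13 members higher and 21 lower in place of 18 and 19, and over all genes 3777 higher and 3903 lower in place of 4509 and 3408. Fold changes also varied with the genomic span of a gene, from a median of 0.18 in the shortest of 4 equal classes of all genes tested to -0.02 in the longest. The members ran from 0.25 in the shortest class (12 genes) to -0.22, -0.37 and -0.03 in the next ones (13, 9 and 9 genes), and with the trend over span removed 15 were higher and 19 lower. Without that trend PPP1R15A (0.14), P4HB, ERO1A and DERL2 lost their calls and DDIT3 was called lower (-0.27), and with no filter on low values HSP90B1, DNAJB11, P4HB, ERO1A, ERN1, EDEM2, DERL2 and SEC61A1 lost theirs. Without a trend of the variance in limma, HSP90B1, P4HB, EDEM2, DERL2 and SEC61A1 lost their calls. The cause of the trend over span was not tested.

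Other genes of the same pathways, from a list of 94 of which 91 were tested, gave 37 higher, 30 lower and 24 not called, with a median log2 fold change of 0.08. Calls made up 73.6% of them, beside 61% of all genes tested (34.7% higher and 26.2% lower). Of 25 other folding genes, 13 rose and 8 fell. KDELR1, the receptor that returns chaperones with a retrieval signal from the Golgi to the ER, had 14.7, 14.1 and 14.9 FPKM in shALKBH5 and 90.7, 82.0 and 82.6 FPKM in shCtrl cells (log2 fold change -2.54 ± 0.05, adjusted p = 1.76e-07). The disulphide isomerase PDIA5 and the J protein DNAJC1 fell by 0.61 and 0.60 on the log2 scale. The proline isomerases FKBP14 and FKBP11 and the redox protein SELENOM rose by 1.16, 1.11 and 1.09.

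Of 17 other stress signalling genes tested, 7 rose and 9 fell. ATF4, the transcription factor whose translation EIF2AK3 favours, had 90.4, 92.5 and 88.7 FPKM in shALKBH5 and 113, 111 and 108 FPKM in shCtrl cells (log2 fold change -0.29 ± 0.04, adjusted p = 0.000313) and CHAC1, ATF3 and TRIB3, genes known to respond to it, fell by 0.94, 0.59 and 0.20 on the log2 scale. SESN2 (0.82) and PPP1R15A (0.28), which are also known to respond to ATF4, rose, so these genes did not share 1 direction. With the span trend removed ATF4 was -0.44, and with a pseudocount of 1 ATF3 was -0.38, both called. TMBIM6, a membrane protein known to restrain ERN1, had 35.2, 37.1 and 35.5 FPKM against 92.7, 101 and 105 FPKM (log2 fold change -1.47 ± 0.05, adjusted p = 1.13e-06). CREB3L2, a membrane-bound transcription factor cut in the same way as ATF6, rose by 1.32, and PPP1R15B, the constitutive counterpart of PPP1R15A, by 0.75.

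Of 19 other degradation genes, 8 rose and 6 fell, among them the ubiquitin-conjugating enzyme UBE2J1 (log2 fold change -0.94), SELENOS (-0.55) and JKAMP (-0.45) downward and FAF2 (0.51), NPLOC4 (0.51) and the lectin ERLEC1 (0.51) upward. Of 30 other genes for translocation and glycosylation, 9 rose, 7 fell and 14 were not called. SRPRA, the receptor of the signal recognition particle, had 202, 208 and 207 FPKM in shALKBH5 and 86.5, 84.5 and 86.1 FPKM in shCtrl cells (log2 fold change 1.26 ± 0.03, adjusted p = 3.18e-07), and the particle's SRP54 and SRP19 rose by 0.62 and 0.60. CCDC47, OSTC and STT3B, which serve membrane insertion and N-glycosylation, had log2 fold changes of -1.08, -0.56 and -0.45.

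Chaperones of the cytosol and mitochondria, taken for comparison, gave 9 higher, 6 lower and 10 not called of 25 tested. This is 60% called, beside 61% of all genes tested. Their median log2 fold change was -0.05 and their median size of change 0.20, against 0.44 for the ER members and 0.36 over all genes tested. For the other ER genes, the median size was 0.50 in the folding list and 0.25 to 0.33 in the remaining lists. Of the cytosolic and mitochondrial genes, DNAJB1 (0.83), CCT6A (0.54) and HSPA9 (0.53) rose, and HSPA1A (-0.74), HSP90AA1 (-0.48) and HSPA1B (-0.47) fell. HSPA1A and HSPA1B are near-identical copies, so how reads were split between them is uncertain.

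In the m6A data, each group had 1 peak list, so peaks have no replicates and no difference between the lists was tested. Members held 94 peaks in 39 genes in the shALKBH5 list and 88 peaks in 40 genes in the shCtrl list. A peak was present in 86% and 85.5% of all genes tested, so its presence in most members is close to the background. With only peaks enriched 2-fold or more at an FDR no higher than 0.01, 37 and 38 members had one, beside 78.4% and 77.9% of all genes tested. No peak was listed for SEC61B, SSR3, EDEM1 or DERL3, and CRELD2 had 1 peak in the shCtrl list only. Of the member peaks, 77.7% (95% exact interval 67.9 to 85.6%) in the shALKBH5 list overlapped a peak of the shCtrl list by at least 1 base on the same strand, and 84.1% (74.8 to 91.0%) the other way round, against 78.1% and 81.3% of all peaks. These intervals cover counting error only.

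Most member peaks were annotated to the 3'UTR, 55 of 94 (58.5%, exact interval 47.9 to 68.6%) in shALKBH5 and 58 of 88 (65.9%, 55.0 to 75.7%) in shCtrl cells, beside 53.0% and 52.8% of the peaks of all genes tested. The 5'UTR held 13.8% and 15.9% of them, beside 20.1% and 20.3%. Introns held 13.8% (7.57 to 22.5%) and 9.09% (4.01 to 17.1%), beside 5.91% and 5.79%. The highest fold enrichment of IP over input among the members was in an exon of MANF, at 77.3 in the shALKBH5 and 54.1 in the shCtrl list (chr3:51385291-51385647 and chr3:51385291-51385677, plus strand). The 3'UTR peaks of PDIA3 (43.2 and 37.5) and SDF2L1 (28.7 and 28.4) followed it among exonic peaks found in both lists, apart from the 5'UTR of SSR2. Over all member peaks the median fold enrichment was 4.07 and 4.16, beside 4.29 and 4.33 for all genes tested.

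Peaks of the same gene that covered at least 50% of each other could be matched in 58 pairs from 35 members, which are not independent of each other where listed peaks of a gene overlap, as in DNAJB11. The fold enrichment was higher in the shALKBH5 list in 24 pairs and lower in 34, with a median ratio of 0.951, beside 55.4% lower and a median ratio of 0.965 over 18067 matched pairs of all genes tested. Only 6 member pairs (10.3%) differed by at least 1.5 times, 3 in each direction, beside 23.6% of all pairs. The 3 lower ones were all in 3'UTRs, and were DDIT3 (4.65 against 9.43), RRBP1 (5.26 against 10.6) and the second 3'UTR peak of ATF6 (3.00 against 7.36). The DDIT3 peak of the shALKBH5 list, 1158 bases long, also covers a weaker peak of the shCtrl list (1.90, annotated to the 5'UTR) beside the matched one of 742 bases, so its lower value is that of a wider region. The 3 higher ones were the 5'UTR peak of SSR2 (50.2 against 13.6), an intron peak of SSR2 (22.0 against 12.8) and a peak of HSP90B1 that is annotated to the 5'UTR in the shALKBH5 list and to the 3'UTR in the shCtrl list (5.44 against 2.79). That HSP90B1 peak also covers a 5'UTR peak of the shCtrl list with a fold enrichment of 5.68, so its direction depends on which of them it is matched with.

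**Figure D4:**
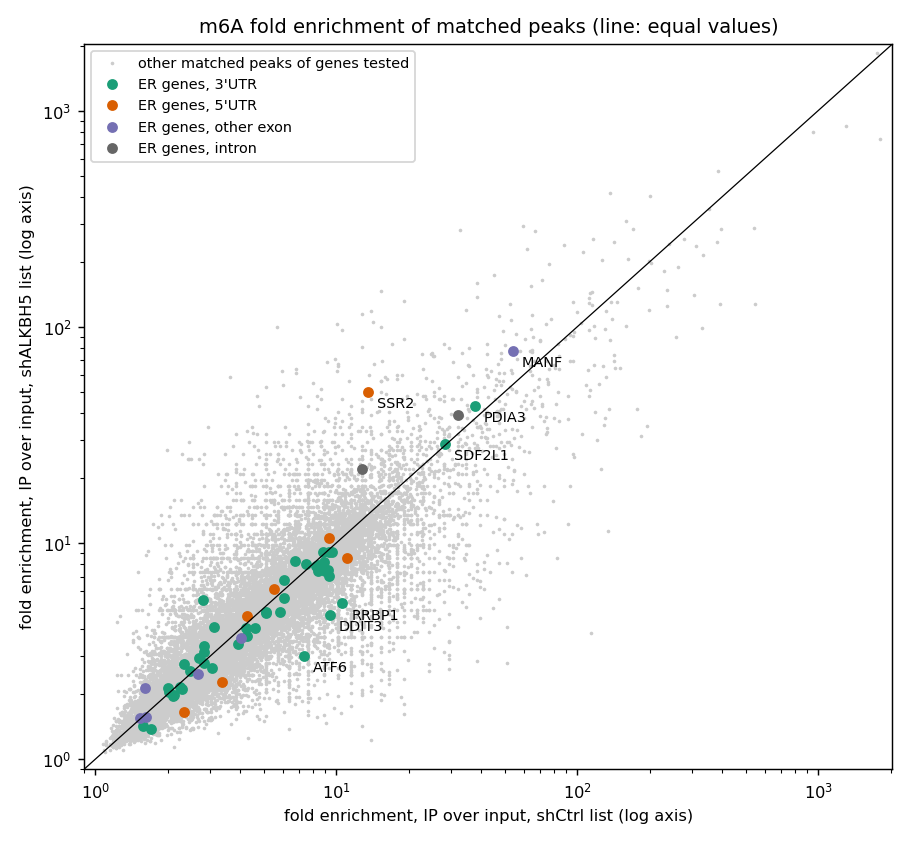
Fold enrichment of IP over input in the shCtrl list (x, log axis) and the shALKBH5 list (y, log axis) for matched peaks of all genes tested (grey) and the 58 matched member peaks, coloured by region, with a line at equal values. Member peaks follow the line from low values up to MANF (54.1 and 77.3), with SSR2 above it and DDIT3, RRBP1 and ATF6 below.

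Set beside expression, the genes with lower mRNA did not share 1 direction in the peaks. HSPA5, with its strongest peak in the 3'UTR (chr9:125236170-125237097, minus strand), had a fold enrichment of 7.89 in shALKBH5 and 8.40 in shCtrl cells. CALR had 4.74 and 5.11 in its 3'UTR peak (chr19:12943512-12944459, plus strand), and HYOU1 had 1.97 and 2.11 in the 3'UTR and 8.57 and 11.1 in the 5'UTR. PDIA4 had 9.05 and 8.82 in its stronger 3'UTR peak, and all of these chaperone peaks differed by less than 1.5 times between the lists. PDIA3 (43.2 and 37.5) and DNAJC3 (6.75 and 6.06 in its longer matched peak) were also higher in shALKBH5, both in 3'UTRs. Of 13 matched luminal chaperone pairs past the stricter limits, DNAJB9 included, 9 were higher in shALKBH5 and 4 lower. The 4 such pairs of the lectin list were all lower. RRBP1 was lower in the 3'UTR, as given above, and had 10.6 and 9.37 in the 5'UTR, in a listed span of 23 kb that includes introns.

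Of the genes with higher mRNA, ERO1B had 8.17 and 8.94 and XBP1 had 2.78 and 2.82 in their 3'UTR peaks, DNAJB9 had 7.40 and 8.39, and SERP1 had 1.38 and 1.71. ERN1 had 8.22 and 6.74 in 1 of its 3'UTR peaks and 7.07 and 9.36 in the other. EIF2AK3 had its strongest peak in each list in the 3'UTR annotation, with 6.29 in shALKBH5 and 4.45 in shCtrl cells, but the listed spans of 5688 and 13064 bases were too unlike to be matched. A further deposited table lists peaks that were compared between the groups. It held 16 peaks in 15 of the 43 members with expression values, 34.9% of them beside 32.7% of all genes tested, and 12 of the 16 were in 3'UTRs, 2 in 5'UTRs and 2 in other exons.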

How the data were processed

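Input RNA-Seq and m6A IP data of A375 cells were used, with groups and replicate numbers taken from the sample titles. The authors deposited expression as FPKM per input library; the aligner and counter are not given in the sources used here, and edgeR is the authors' tool for their own comparison. For each group the authors deposited a single peak list, in which every peak has a fold enrichment (the ratio of IP to input). It also has a log10 p and a log10 FDR by the authors, handled as a score since some are infinite. The authors' columns of fold changes, p-values, q-values and calls, in the expression table and in the table of compared peaks, hold their own comparison and were not used; of the second table only positions, genes and annotation were. The submitters' processing notes name the mouse build mm10, but the identifiers are human, and 43 of 43 members overlap their RefSeq span on GRCh38.p14. Peak starts were changed to count from 1.

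Expression was tested with limma 3.58.1 (trend, two-sided, Benjamini-Hochberg over all genes tested) in R 4.3.3 on log2(FPKM + 0.1), which understates changes of low genes, for the 12985 genes whose mean was 0.5 FPKM or more. Other steps used Python 3.11.15, pandas 2.3.3, scipy 1.17.1 and matplotlib 3.10.9. Low FPKM values show no steps of whole reads (the commonest ratio between libraries made up 0.216% and 0.167% of them), so the depth per library is unknown and the 3 libraries a group limit the precision; with 3 against 3, exact permutation allows no two-sided p under 0.1. Libraries of 1 group correlated at 0.981 to 0.984 and of different groups at 0.929 to 0.934. Stricter peaks had at least 2-fold enrichment with an FDR no higher than 0.01.

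The members, the lists and the tests were chosen with earlier results of these data known. All members could be named; of the other lists, the 3 most positive and the 3 most negative genes were named among those called with at least 1 FPKM in the higher group, plus ATF4, ATF3 and TRIB3. Matching of peaks at 50% and removal of the trend over gene span were chosen after seeing the data. Alternatives tried were a pseudocount of 1 or of 0.01, no filter, a filter at 1 FPKM, median-ratio scaling, a replicate block, no trend in limma, stricter peaks, a reciprocal overlap of 50%, and leaving out each library. Sequences under peaks and single IP libraries were not analysed here.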

Additional observations from a re-analysis of the deposited data

How the results depend on the processing

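Of the 43 members tested, 30 kept their direction and call under every alternative (16 lower, 12 higher and 2 not called), and 13 did not in at least 1. ATF6 reversed its sign with the span trend removed (0.10) and without shCtrl replicate 2; leaving out 1 library gave it values from -0.0918 to 0.0436, none of them called. The members called higher and lower numbered 18 and 19 with either pseudocount, 13 and 16 with no filter, 17 and 20 with a filter at 1 FPKM and 14 and 18 without a trend. Leaving out 1 library gave 13 to 17 higher and 17 to 20 lower members, 6874 to 7833 calls over all genes, and a member median between -0.09 and -0.03. Deviations of same-numbered libraries correlated at 0.02, -0.05 and 0.06, so they shared little. The titles give only numbers, and whether same-numbered libraries were prepared together is not stated. With the replicate number as a block, 14 members were higher and 17 lower (HSP90B1, ERO1A, P4HB, ERN1, EDEM2 and DERL2 were not called), and 7271 of all genes were called. The share of member peaks overlapping the other list moved from 77.7% to 90.8% with stricter peaks and to 62.8% with a reciprocal overlap of 50% in the shALKBH5 list, and from 84.1% to 67.0% with the reciprocal overlap in the shCtrl list, which by construction demands more overlap. Stricter peaks left a peak in 37 members in the shALKBH5 list and 38 in the shCtrl list. The cause of the other changes was not tested. Depth is unknown and 1 peak list a group leaves peak differences without an error.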
